A study of Homo sapiens with 4 samples.

Results

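The AP-1, EGR1 and MYC immediate early genes comprised 10 genes chosen by symbol: the FOS family (FOS, FOSB, FOSL1, FOSL2), the JUN family (JUN, JUNB, JUND), EGR1, IER3 and MYC. All 10 were listed in the Huh7 pair of count files. In the Hep3B pair 9 were listed, FOSB being the exception, and genes without a read in a pair were not in its files. The files held 16370 genes in either pair, 15480 in the Hep3B pair and 14807 in the Huh7 pair.

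RNA from 4 human hepatoma cultures was sequenced. The parental lines Hep3B and Huh7, both long-established from human hepatoma, stand for hepatic cancer cells (HCC). Their stem-like derivatives, Hep3B-C from the first and Huh7-C from the second, stand for hepatic cancer stem cells (HCSC). No genetic change or agent separates the groups in the labels, and the enrichment procedure was not given in the sources used here. With 1 library per culture, the effects of group, culture and library preparation cannot be told apart in either pair. Nor can fewer cells with a transcript be told apart from less transcript per cell.

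Immediate early genes are transcribed within minutes of a growth or stress signal, without new protein synthesis. FOS and JUN proteins pair through leucine zippers into AP-1, which binds the TGACTCA site, and JUN proteins can also pair among themselves. EGR1 is a zinc finger factor whose gene is switched on by the RAS and MAP kinase cascade through serum response factor (SRF). MYC pairs with MAX on E-box sites and drives ribosome and metabolic genes, while IER3 is an early response gene linked to survival and MAP kinase signalling. In liver, JUN, EGR1 and MYC are known as early genes of regeneration.

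Promoter sequences are shown for the members in which a site for one of these factors was found, since such sites link the members to each other and to SRF. RefSeq windows of 250 bases before to 50 bases after the gene start (GRCh38.p14) were at hand for 7 of the 10 members. They were not used here for FOSL1, IER3 and MYC. Both strands were searched. The EGR1 window (chr5:138465229-138465528, plus strand) held 2 CArG boxes, the SRF site, written CC, then 6 bases that are A or T, then GG. They lay at -105 to -96 and -83 to -74 from the start and are in capitals. A CArG box was found in 1.29% of the 35116 promoters searched.
EGR1: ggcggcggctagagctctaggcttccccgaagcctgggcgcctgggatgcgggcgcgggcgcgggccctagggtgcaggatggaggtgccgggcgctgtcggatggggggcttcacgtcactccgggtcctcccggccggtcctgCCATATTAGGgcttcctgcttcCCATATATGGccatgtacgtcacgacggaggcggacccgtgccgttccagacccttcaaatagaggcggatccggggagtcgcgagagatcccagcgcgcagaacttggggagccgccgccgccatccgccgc
The JUN window (chr1:58783998-58784297, minus strand) held TGACATCA at -67 to -60, a variant AP-1 site, as did 2.61% of promoters.
JUN: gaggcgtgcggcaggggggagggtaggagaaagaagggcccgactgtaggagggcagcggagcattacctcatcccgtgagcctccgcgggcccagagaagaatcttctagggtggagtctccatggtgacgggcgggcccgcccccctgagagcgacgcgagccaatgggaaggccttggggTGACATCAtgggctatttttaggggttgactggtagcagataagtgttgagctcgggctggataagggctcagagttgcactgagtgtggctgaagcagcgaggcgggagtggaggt
The JUND window (chr19:18281573-18281872, minus strand) held the cyclic AMP response element TGACGTCA at -200 to -193, as did 1.85% of promoters.
JUND: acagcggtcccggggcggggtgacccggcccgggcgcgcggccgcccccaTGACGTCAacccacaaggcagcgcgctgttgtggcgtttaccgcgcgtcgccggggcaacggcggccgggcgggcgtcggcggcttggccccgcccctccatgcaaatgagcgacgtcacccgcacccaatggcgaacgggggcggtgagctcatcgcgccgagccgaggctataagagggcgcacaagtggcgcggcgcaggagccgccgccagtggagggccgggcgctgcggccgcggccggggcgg
The FOSL2 window (chr2:28392608-28392907, plus strand) held the AP-1 site TGACTCA at 5 to 11 after the start. This site, read as TGACTCA or TGAGTCA, was found in 4.95% of promoters.
FOSL2: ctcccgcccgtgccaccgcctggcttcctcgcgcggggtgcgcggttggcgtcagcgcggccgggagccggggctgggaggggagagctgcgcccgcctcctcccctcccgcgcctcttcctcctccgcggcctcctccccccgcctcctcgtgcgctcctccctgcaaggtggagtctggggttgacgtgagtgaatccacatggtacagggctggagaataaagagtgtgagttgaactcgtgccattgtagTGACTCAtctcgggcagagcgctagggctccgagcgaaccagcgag

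Of the same 7 windows, those of FOS, JUNB and FOSB held TATAAA (11.5% of promoters). GGGCGG, the GC box, was found in 5 of the 7 windows and in 45% of promoters. The E-box CACGTG was found in 0 of the 7 and in 7.26% of promoters. These matches describe letters in a window and were not tested for binding.

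The libraries held between 2896418 (Hep3B) and 4641927 (Hep3B-C) counts on genes. Levels are given as CPM, counts scaled to a common library total, on which 3 counts stood at 0.646 to 1.036. Hep3B-C stood apart from Hep3B across the transcriptome. The median log2 fold-change of genes with at least 20 counts was -0.55 in the Hep3B pair by library totals and 0.04 with TMM library sizes, a scaling that sets the bulk of genes to no change. For the Huh7 pair these medians were 0.06 and 0.02. Across 11338 genes the fold-change of the Hep3B pair followed the GC content of the transcript (Spearman's rho 0.631) and its length (-0.434), whereas in the Huh7 pair the coefficients were -0.059 and 0.315 across 11060 genes. These genes share their libraries and are not replicates. Members were GC-rich, with a median of 56.7% GC in the Hep3B pair against 49.0% for all genes. All 9 hepatocyte markers had counts in every culture. Their summed level was 53328 and 71425 CPM in Hep3B and Hep3B-C and 47653 and 19625 CPM in Huh7 and Huh7-C. SERPINA1 alone held 10113 and 26906 CPM in Hep3B and Hep3B-C and 40517 and 17284 CPM in Huh7 and Huh7-C. AFP (5.73 and 2.77 CPM) and TTR (2.865 and 3.0 CPM) were low in Huh7 and Huh7-C. Summed markers of fibroblasts were between 10.8 and 45.2 CPM with DCN at 0 or not listed, those of endothelium between 2.8 and 21.5 CPM with CDH5 likewise, and those of leukocytes between 52.0 and 213 CPM, nearly all from LYZ, with PTPRC and CD3E at 0 or not listed throughout.

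Levels were first compared between members per length, as RPKM, which is CPM divided by gene length in kilobases. IER3 had the highest level of the 10 in every culture, with 184 and 277 RPKM in Hep3B and Hep3B-C and 121 and 221 RPKM in Huh7 and Huh7-C. MYC came next in the Hep3B lineage, at 103 RPKM in Hep3B and 76.4 in Hep3B-C, and JUNB came next in the Huh7 lineage, at 35.8 RPKM in Huh7 and 50.2 in Huh7-C. In Huh7-C the counting intervals of JUNB and MYC (41.4 RPKM) overlapped. JUND, EGR1, JUNB and JUN followed in Hep3B between 52.4 and 41.5 RPKM, with overlapping intervals from each to the next. In Huh7 the intervals overlapped between JUND (26.0 RPKM) and MYC (22.2) and between MYC and EGR1 (19.9), but not between JUNB and JUND or between EGR1 and FOSL1. The FOS family genes were lowest in the Hep3B lineage. In the Huh7 lineage FOSL1 stood above JUN, at 6.87 against 3.91 RPKM in Huh7 and 11.8 against 4.93 in Huh7-C, and the intervals of JUN and FOSL2 overlapped. FOS reached 3.04 RPKM in Hep3B and 1.80 in Hep3B-C, against 0.92 in Huh7 and 1.61 for Huh7-C.

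**Figure D1:**
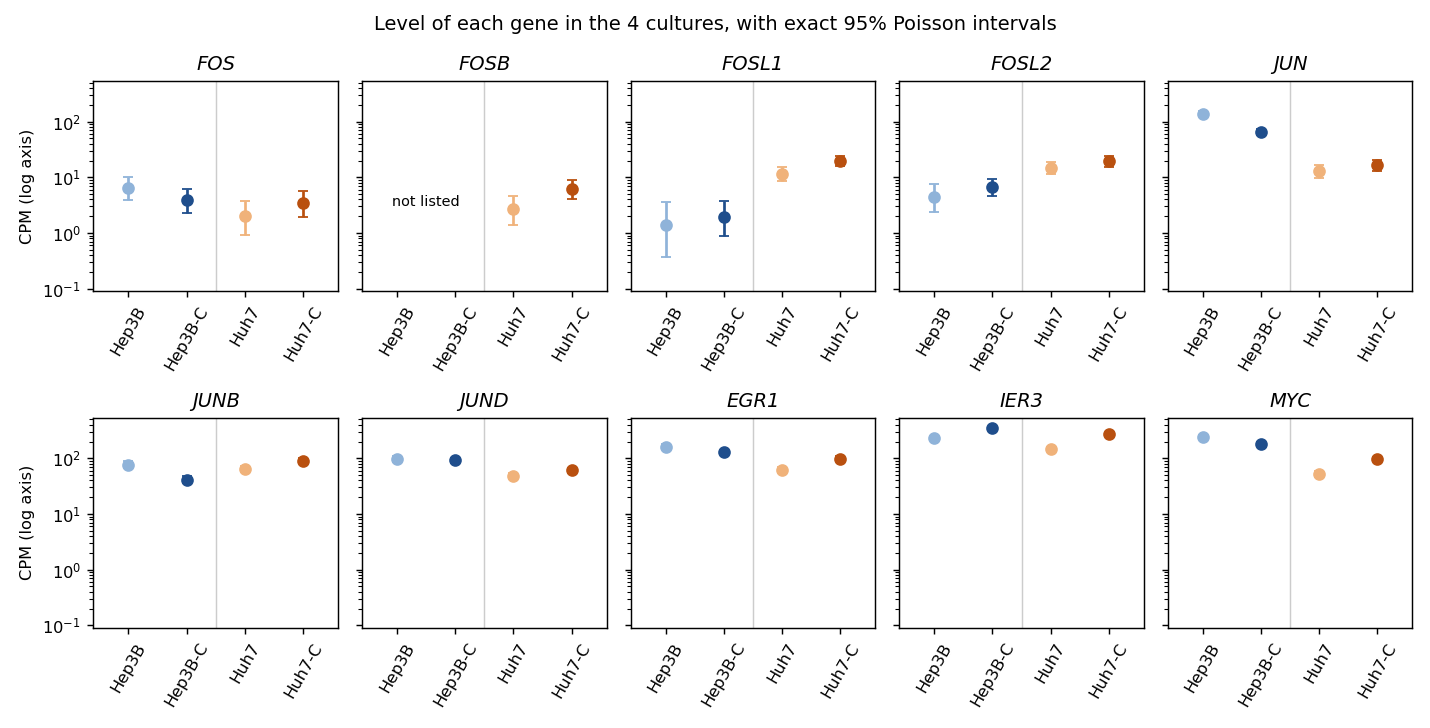
CPM (log axis) of each of the 10 genes in the 4 cultures, as points with exact 95% Poisson intervals of the counts from 1 library each. IER3 lies between 150 and 343 CPM, JUN is at 138 CPM in Hep3B and 13.0 in Huh7, and FOSB was not listed in the Hep3B pair.

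Which members changed in HCSCs was asked within each lineage with the Audic-Claverie test, a Poisson test that sets 2 counts against their library totals. The Benjamini-Hochberg false discovery rate (FDR) was taken over all genes of the pair. A member is said to rise or fall where its FDR was at most 0.01, and to be called where it also changed at least 2-fold. Fold-changes are log2 ratios (HCSC/HCC) with Poisson standard errors (SE). The test compares 2 libraries, not conditions, and has no replicate check.

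In the Huh7 pair every member had a higher level in Huh7-C than in Huh7, by log2 0.31 to 1.20 with a median of 0.71. Of the 10, 5 rose (FOSL1, JUNB, EGR1, IER3 and MYC), 0 fell and 5 did not pass the FDR. Over all genes 15.4% rose and 12.2% fell. None of the 10 was called, since no member that rose reached 2-fold (4.19% of all genes were called up and 4.15% down). All 10 were above 0 with TMM library sizes as well, at a median of 0.67, and after removal of the GC and length trends, at 0.26 to 1.11. Of all genes with at least 20 counts, 53.9% lay above 0. Markers moved in the same pair. The summed hepatocyte level was lower in Huh7-C than in Huh7, with 5 of the 9 called down and 1, ALB, called up (482 to 1156 counts). PECAM1 of endothelium (17 to 93 counts) and COL3A1 of fibroblasts (0 to 58) were called up and PDGFRB of fibroblasts (186 to 2) was called down, and LYZ rose from 236 to 394 counts. The part of these markers in the differences of the members was not tested.

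IER3 had 680 counts (150 CPM) in Huh7 and 1185 (273 CPM) in Huh7-C, a log2 fold-change of 0.87 (SE 0.069, FDR 1.57e-35). Its exons (GRCh38 chromosome 6, 30743199 to 30744554, minus strand) overlap those of the antisense gene IER3-AS1, and whether counting used strand was not stated. MYC had 238 counts (52.5 CPM) in Huh7 and 424 (97.8 CPM) in Huh7-C, a log2 fold-change of 0.90 (SE 0.117, FDR 7.7e-14). MYC lies on GRCh38 chromosome 8 at 127735434 to 127741434, plus strand. IER3 and MYC thus reached 1.82-fold and 1.86-fold the level of Huh7, the largest of the 5 rises.

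EGR1 had 283 counts (62.4 CPM) in Huh7 and 425 (98.1 CPM) in Huh7-C, a log2 fold-change of 0.65 (SE 0.111, FDR 2.93e-08). JUNB, whose product can act as a weaker activator than JUN within AP-1, had 295 counts (65.0 CPM) and 395 (91.1 CPM), a log2 fold-change of 0.49 (SE 0.111, FDR 7.05e-05). Exons of JUNB (chromosome 19, 12791496 to 12793315, plus strand) overlap those of HOOK2 on the other strand. FOSL1, which encodes the FOS family protein FRA-1, had 52 counts (11.5 CPM) and 85 (19.6 CPM), a log2 fold-change of 0.77 (SE 0.253, FDR 0.00945). With TMM library sizes the log2 fold-change of FOSL1 was 0.73 and its FDR 0.0154, above the threshold, whereas with the GC and length trends removed it was called up (1.02, FDR 0.000315).

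The other 5 members of the Huh7 pair did not pass the FDR. JUND had 221 and 262 counts (48.7 and 60.5 CPM, FDR 0.0573) and JUN had 59 and 71 (13.0 and 16.4 CPM, FDR 0.401) in Huh7 and Huh7-C. FOSL2, which encodes FRA-2, had 67 and 84 counts (14.8 and 19.4 CPM, FDR 0.238). FOSB had the largest fold-change of the 10, log2 1.20 (SE 0.492), on 12 and 27 counts (FDR 0.0478). FOS had 9 and 15 counts (FDR 0.449). The 95% Poisson interval of the log2 fold-change of FOS ran from -0.39 to 1.94, so at this depth it covered both no change and a difference of over 2-fold.

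In the Hep3B pair the members did not share a direction. By library totals 1 of the 9 listed rose (IER3), 4 fell (JUN, JUNB, EGR1 and MYC) and 4 did not pass the FDR, against 19.1% of all genes that rose and 37.9% that fell. Only JUN was called, as down (30.4% of all genes were called down and 13.2% up). The median over the 9 was -0.32, against -0.60 for all genes with at least 10 counts. With TMM library sizes the median of the members was 0.28, 6 of 9 lay above 0, IER3 was called up and JUN was no longer called. Of the 9 hepatocyte markers 4 were called up and 3 (AFP, TF and FGB) down by totals, and 5 up and 2 down with TMM. The part of these markers in the differences of the members was not tested in this pair either.

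JUN had 399 counts (138 CPM) in Hep3B and 299 (64.4 CPM) in Hep3B-C, a log2 fold-change of -1.10 by totals (SE 0.11, FDR 8.6e-23) and -0.50 with TMM (FDR 1.3e-05). JUNB had 223 counts (77.0 CPM) and 190 (40.9 CPM), with -0.91 by totals (SE 0.142, FDR 4.81e-10) and -0.32 with TMM, where it no longer passed (FDR 0.0446). JUN thus fell under either scaling, and JUNB by totals but not with TMM. JUND, a family member with steady expression in many cells, had 284 counts (98.1 CPM) and 427 (92.0 CPM), and its log2 fold-change of -0.09 by totals (FDR 0.469) turned to 0.50 with TMM (FDR 1.31e-05).

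EGR1 had 468 counts (162 CPM) in Hep3B and 602 (130 CPM) in Hep3B-C, a fall by totals (log2 -0.32, SE 0.089, FDR 0.000755) that turned to a rise with TMM (0.28, FDR 0.00375). MYC had 703 counts (243 CPM) and 838 (181 CPM), a fall by totals (log2 -0.43, SE 0.074, FDR 2.45e-08) that turned to 0.17 with TMM (FDR 0.0406). The direction of EGR1 and MYC in this pair thus depended on the scaling. IER3 had 661 counts (228 CPM) and 1593 (343 CPM), a rise of log2 0.59 by totals (SE 0.067, FDR 9.28e-19) and 1.18 with TMM.

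The listed FOS family genes of the Hep3B pair were scarce. FOS had 19 counts in Hep3B and 18 in Hep3B-C (6.56 and 3.88 CPM, FDR 0.15), FOSL1 had 4 and 9 (1.38 and 1.94 CPM, FDR 0.849) and FOSL2 had 13 and 31 (4.49 and 6.68 CPM, FDR 0.36). None of the 3 passed the FDR.

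Relative to genes of like GC content and length, members stood low in Hep3B-C. Once both trends were removed, the median of the 9 was -1.48 against -0.60 for all genes. On this scale 8 of the 9 lay below 0 and 7 were called down, against 4123 of 15170 genes with known GC content. The scale kept the shift of the bulk of genes by library totals. A value of 0 was thus not the level of genes of like GC content and length. The values were -2.96 for JUNB, -2.25 for JUND, -2.20 for JUN, -1.48 for IER3, -1.37 for MYC and -1.27 for EGR1, and FOSL2 alone was above 0 (0.33). The direction of IER3 thus turned from a rise by totals to a fall, while the values of JUN and JUNB were below 0 on each scale used here, that of JUNB without passing the FDR with TMM.

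**Figure D2:**
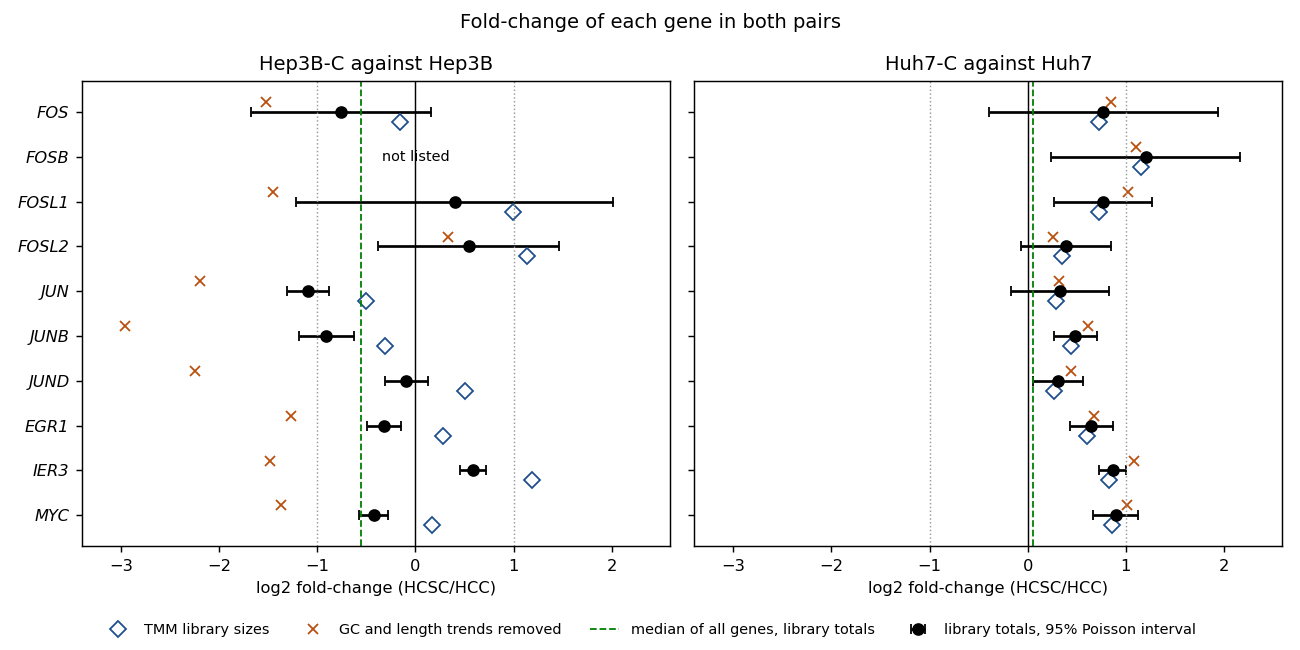
Log2 fold-change (HCSC/HCC) of each gene in the Hep3B pair (left) and the Huh7 pair (right), by library totals with 95% Poisson intervals (dots), with TMM library sizes (diamonds) and after removal of the GC and length trends (crosses). All 10 genes lie above 0 on the 3 scales in the Huh7 pair, whereas values spread from -2.96 to 1.18 in the Hep3B pair.

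**Figure D3:**
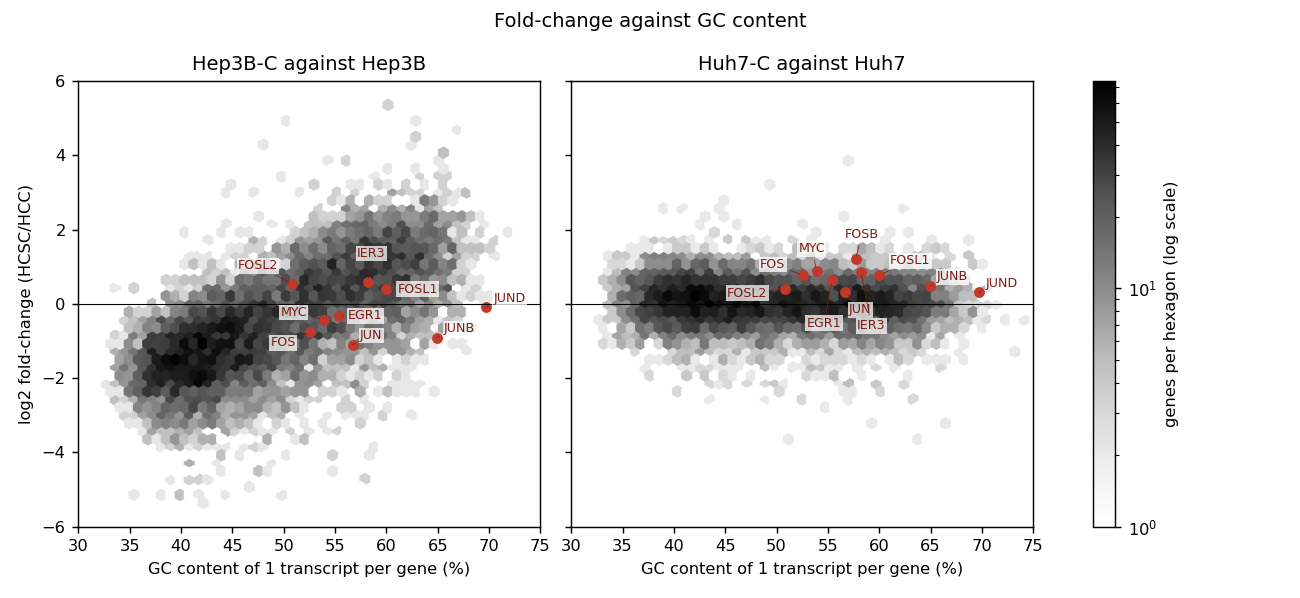
Log2 fold-change (HCSC/HCC, library totals) against the GC content of 1 transcript per gene, with all genes as shaded hexagons and the members as labelled points. In the Hep3B pair fold-change climbs with GC content and JUNB and JUND lie low among the genes of like GC content, whereas the Huh7 pair is flat.

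HCSC and HCC were then compared over both lines with edgeR's quasi-likelihood test, with the parental line as a block. None of the 10 members passed an adjusted p of 0.01, and none had an unadjusted p under 0.05. Over all 11691 genes 3 passed (0.0257%) and 372 had an unadjusted p under 0.05. DESeq2 with the same block likewise called 0 members. IER3, which rose in both HCSC lines by totals, had a log2 fold-change of 0.90 and an edgeR adjusted p of 0.9994. FOSB entered this fit as 0 counts in the Hep3B pair, where it was not listed. The fit had 1 residual degree of freedom.

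The largest differences among the members lay between the lineages. JUN had 138 CPM in Hep3B against 13.0 in Huh7, 10.5-fold higher, and 64.4 in Hep3B-C against 16.4 in Huh7-C, 3.91-fold higher. MYC was 4.62-fold higher in Hep3B than in Huh7 and 1.84-fold higher in Hep3B-C than in Huh7-C. FOSL1 went the other way, 7.45-fold lower in Hep3B than in Huh7 and 9.64-fold lower in Hep3B-C than in Huh7-C. JUNB was at like levels in Hep3B and Huh7 (77.0 and 65.0 CPM), but 2.22-fold lower in Hep3B-C than in Huh7-C. These folds are by library totals. In the Hep3B pair JUNB stood at log2 -0.911 by totals and -0.315 with TMM, so the size of its gap can depend on the scaling. In the edgeR fit over all 4 samples none of the 9 members listed in both lineages passed an adjusted p of 0.01 for lineage. Over all 11691 genes of the fit 6.06% passed, a share that was not limited to genes listed in both lineages. FOSL1 had an adjusted p of 0.02655 and JUN of 0.0362, both with an unadjusted p under 0.05, and the other 7 had 0.4054 or more. FOSB, with an adjusted p of 0.00403, was left out of the 9, since its test would restate that it was not listed in the Hep3B pair. The share over all genes thus rests on an unlike set. The difference between lineages was a comparison added after the data had been seen.

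Genes that act around the members were taken from 7 lists, each described by its counts and its median over genes with at least 10 counts. Over all genes 13.2% were called up and 30.4% down in Hep3B-C at a median of -0.60 (-0.01 with TMM). In Huh7-C 4.19% were called up and 4.15% down at a median of 0.06. With TMM 3348 of 15480 genes were called up and 2799 down in Hep3B-C. Once the GC and length trends were removed, 538 of 15170 genes were called up and 4123 down there, at a median of -0.60. In Huh7-C the same removal left 418 of 14536 genes called up and 612 down. Of 34 other immediate early genes, 31 were listed for Hep3B and Hep3B-C, where 1 was called up and 14 down at a median of -1.21. With TMM 2 were called up and 8 down, and after removal of the GC and length trends 0 were called up and 21 down. GADD45B, a stress sensor, fell from 100 to 13 counts (log2 -3.58, FDR 1.31e-27). SGK1, a kinase induced by serum and glucocorticoid, fell from 655 to 95 counts (-3.46, FDR 1.12e-168). CSRNP1, a nuclear protein, rose from 18 to 87 counts (1.56, FDR 8.97e-06). For Huh7-C 3 of the 32 listed were called up and 2 down, at a median of 0.06 beside 0.06 for all genes. The orphan nuclear receptors NR4A2 (33 to 252 counts, log2 2.98, FDR 1.92e-43) and NR4A1 (128 to 557 counts, 2.18, FDR 4.78e-67) rose in Huh7-C more than any of the 10 members, while the zinc finger factor KLF6 (295 to 120 counts, -1.23) and the small GTPase RHOB (149 to 62 counts, -1.19) fell.

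Upstream of these genes, 24 of 25 MAP kinase and SRF regulators were listed in each pair. None was called in the Huh7 pair, where 4 rose and 2 fell at a median of 0.06. In the Hep3B pair 7 were called up and 11 down by totals at a median of -0.77, 8 and 7 with TMM, and 0 and 7 once the GC and length trends were removed. HRAS (12 to 147 counts, log2 2.88) and the kinase ARAF (75 to 627 counts, 2.38) rose by totals, and the SRF coactivator MKL2 (290 to 76 counts, -2.61) fell. SRF itself, named after its values had been seen, was called up in Hep3B-C by totals (110 to 420 counts, 1.25). In Huh7-C it rose by less than 2-fold (249 to 366 counts, 0.62). Among other bZIP partners of AP-1, 1 of 11 was called up and 2 down in the Hep3B pair at a median of 0.21 (0.80 with TMM and -0.47 with both trends removed), with ATF7 (278 to 171 counts, -1.38) and ATF2 (193 to 120 counts, -1.36) below 2-fold with TMM (-0.78 and -0.77). In Huh7-C 1 of 10 was called, MAF, which fell from 60 to 10 counts (-2.46, FDR 1.44e-08), and the list median was 0.21.

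Of 19 MYC targets, all listed in both pairs, 9 were called up and 2 down in Hep3B-C, and 4 up and 0 down in Huh7-C. Without the 2-fold threshold 12 rose and 5 fell in the Hep3B pair, and 11 rose and 2 fell in the Huh7 pair. Once both trends had been removed, 4 were called up and 3 down in Hep3B-C, and 3 up and 0 down in Huh7-C. The list median was 0.93 in the Hep3B pair against -0.60 for all genes, and 0.07 against -0.60 once GC and length trends were removed. The corresponding values of the Huh7 pair were 0.49 against 0.06 and 0.65 against 0.03. BOP1, a ribosome assembly factor, rose in both HCSC lines, with 102 and 1743 counts in Hep3B and Hep3B-C (log2 3.41) and 266 and 654 in Huh7 and Huh7-C (1.36). The polyamine enzymes also moved. Spermidine synthase SRM rose in Hep3B-C (96 to 1677 counts, 3.44) and, by less than 2-fold, in Huh7-C (1312 to 1799 counts, 0.52). Ornithine decarboxylase ODC1 rose in Hep3B-C (233 to 2324 counts, 2.64) and Huh7-C (1615 to 5142 counts, 1.74). The transferrin receptor TFRC (1933 to 476 counts, -2.70) and lactate dehydrogenase LDHA (6563 to 2181 counts, -2.27) fell in Hep3B-C. Both also fell in Huh7-C, by less than 2-fold (-0.38 and -0.16). Of the 13 listed genes of the MAX network, many encode proteins that compete with MYC for MAX or bind MYC. Among the 13, MXD4 (234 to 1880 counts, 2.32) rose in Hep3B-C, and MGA (642 to 250 counts, -2.04) and MXI1 (77 to 30 counts, -2.03) fell. In all 1 was called up and 4 down there at a median of -0.37 (0.23 with TMM). After removal of the trends 0 were called up and 2 down. In Huh7-C, at a list median of 0.21, only MYCBP2 was called (82 to 211 counts, 1.42), and with the trends removed none was.

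Of 16 AP-1 targets, 11 were listed in the Hep3B pair, with 2 called up and 4 down at a median of -1.58, and 13 in the Huh7 pair, with 0 up and 1 down at -0.03. The chemokine IL8 had 151 counts in Hep3B and 0 in Hep3B-C, at least 80.7-fold lower against a floor of 3 counts in that library. The angiogenic factor VEGFA fell from 1151 to 141 counts (log2 -3.71), whereas TIMP1, an inhibitor of matrix proteases, rose from 4 to 391 counts (5.76, FDR 3.87e-74) and the haem-degrading enzyme HMOX1 from 91 to 333 (1.19, FDR 4.3e-13). With TMM 2 AP-1 targets were called up and 4 down in this pair at a median of -0.98. Once both trends had been removed, 1 was called up and 4 down at a median of -1.77. The cell surface receptor CD44 fell from 177 to 22 counts in Huh7-C (-2.91, FDR 1.67e-28). Of 8 EGR1 corepressors and targets, 2 were called up and 4 down in Hep3B-C at a median of -1.09. The corepressor NAB2 rose (35 to 124 counts, 1.13) and its relative NAB1 fell (189 to 76 counts, -1.99). The growth factor gene TGFB1 rose (275 to 2075 counts, 2.23). With TMM 2 were called in each direction, and 0 up and 3 down once both trends had been removed. None was called in the Huh7 pair, where 4 rose and 1 fell at a median of 0.38.

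Further genes behind the smaller counts of these lists were named after their values had been seen. In Huh7-C these were the early gene KLF10 (59 to 128 counts) and the MYC targets CAD (640 to 1479) and NOP16 (124 to 239), all called up. CAD (247 to 1897) and NOP16 (18 to 87) were called up in Hep3B-C as well. In Hep3B-C the bZIP gene BATF2 (9 to 48 counts) was called up. The MAX network genes MXD1 (80 to 44) and MYCBP2 (200 to 104), the AP-1 target PLAUR (11 to 1) and FN1 (15501 to 9385) of the EGR1 list were called down.

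**Figure D4:**
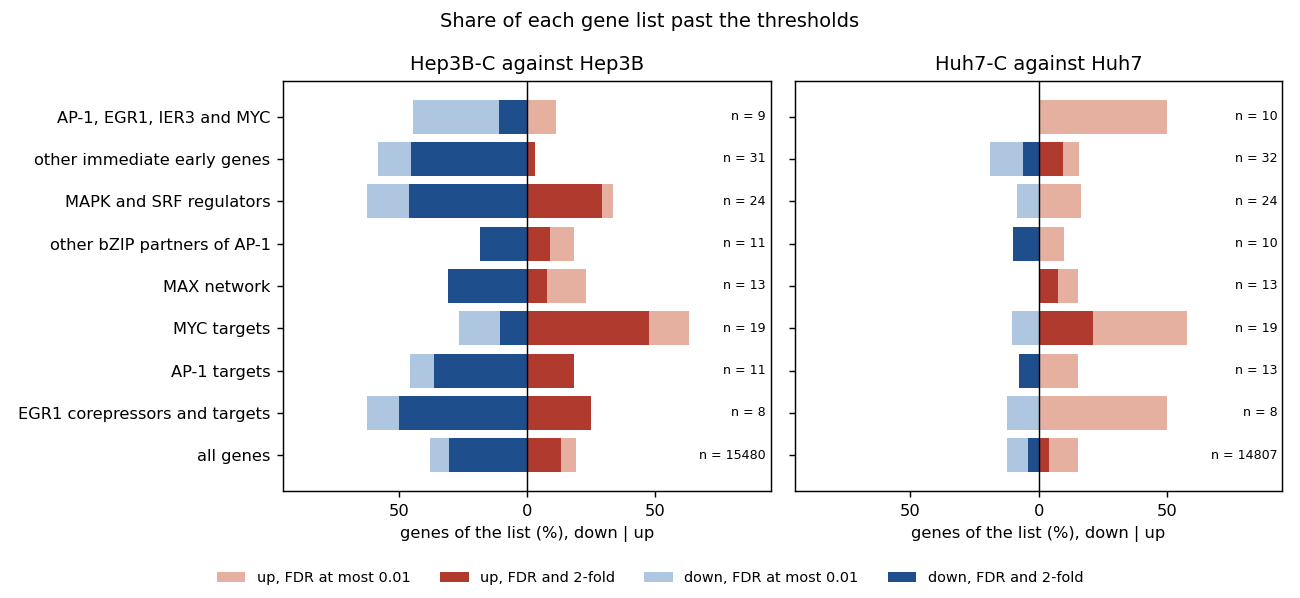
Percent of the listed genes of each list past a FDR of 0.01 (pale bars) and also past 2-fold (dark bars), up to the right and down to the left, by library totals, for the Hep3B pair (left) and the Huh7 pair (right), with the number listed as n. MYC targets reach further to the right than all genes in both pairs, and the AP-1, EGR1, IER3 and MYC genes have no bar to the left in the Huh7 pair.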

How the data were processed

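The mRNA libraries of 4 cultures were prepared with a standard Illumina protocol and sequenced on a Genome Analyzer II. The authors aligned reads with NextGENe to an NCBI human genome build older than GRCh38 and deposited read counts per gene, whole numbers that were not normalized, with a gene length in bases. Counting strand and the treatment of multiply mapped reads were not given in the sources used here. Rows whose gene ID was not a number (0.012 to 0.0391% of counts) were kept in the totals and tests. CPM and RPKM were computed from total gene counts. Fold-changes had 0.5 added to each count. Trends with GC content and length were running medians over 501 genes. GC content came from GENCODE 29 transcripts, as annotation only. The combined comparison used edgeR 4.0.16 (TMM, filterByExpr, parental line as block, adjusted p of at most 0.01) with DESeq2 1.42.0 as an alternative. The line pairs the samples because each HCSC line was derived from its parental line, and deviations of same-line samples correlated at 0.301. Scripts were tested on simulated data, which for the combined comparison had larger changes than the members showed and less variation than was fitted. Intervals and the floor of 3 counts cover counting error only.

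The members and lists were chosen with earlier results of these data known. List genes were named as the 2 called up and the 2 called down with the largest fold-change in each pair, among genes with at least 50 counts in 1 library of the pair. Some list genes are counted but not reported here by name. Alternatives were other library sizes, added counts, count filters, assumed biological variation (BCV) of 0.2 and 0.4, removal of GC and length trends, and leaving out each library. The comparison of lineages and the centring on the median gene were added after the data had been seen.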

Additional observations from a re-analysis of the deposited data

Results flagged for a closer look

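JUNB, EGR1 and MYC passed the FDR in both pairs with opposite directions, higher in Huh7-C and, by library totals, lower in Hep3B-C. The log2 fold-change in the Hep3B pair minus that in the Huh7 pair was -1.4 for JUNB, -0.97 for EGR1 and -1.32 for MYC. With 1 library per culture this difference was not tested. With TMM library sizes JUNB kept opposite directions but no longer passed in the Hep3B pair (-0.32, FDR 0.0446), whereas EGR1 (0.28) and MYC (0.17) were above 0 in both pairs.

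Of the genes on the 7 lists, 3 were called in both pairs in opposite directions, up in Huh7-C and down in Hep3B-C, and kept these directions with TMM. The same difference was -3.4 for KLF10 (328 to 112 counts in the Hep3B pair and 59 to 128 in the Huh7 pair), -3.04 for MYCBP2 (200 to 104 and 82 to 211) and -6.72 for NR4A2 (12 to 1 and 33 to 252), the last on few counts in the Hep3B pair. It was not tested.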

How the results depend on the processing

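In the Huh7 pair all 10 members were above 0 by totals, with TMM and with trends removed. Members called up numbered 2 with the length trend removed, beside 450 of all 14807 genes. With GC and length removed 3 were called up, beside 418 of 14536 genes. With an assumed BCV of 0.2 or 0.4 (edgeR exact test) no member passed the FDR in either pair or was called down in the Hep3B pair, and calls up and down fell to 97 and 161 (0.2) or 13 and 12 (0.4) in the Huh7 pair and to 1374 and 3166 (0.2) or 62 and 169 (0.4) in the Hep3B pair.

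In the Hep3B pair, calls up and down over all genes were 3348 and 2799 with TMM, 3549 and 2553 with DESeq2 size factors and 3236 and 2909 relative to the median gene, and 538 were up with GC and length removed. In these 3 scalings 1 member was called up and 0 down, and 3, 4 and 2 members rose while 1 fell in each. With GC and length removed 7 were called down, beside 4123 of 15170 genes. On that scale 7 fell and 0 rose. With length alone removed 0 rose. Directions turned for JUND (0.503, 0.587, 0.46), EGR1 (0.278, 0.363, 0.236) and MYC (0.168, 0.253, 0.126) with TMM, DESeq2 size factors and the median gene, for FOSL1 with 5 added to each count (-0.043), length removed (-0.235) or GC and length removed (-1.457), and for IER3 with length (-0.4) or both (-1.482) removed.

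Without the replicate block of parental line, 0 genes were called up and 0 down (BCV 0.754 against 0.514) and JUNB turned (0.029). With the block, 2 were called down with library totals, 5 without a count filter and 3 with DESeq2. FOS turned with library totals (-0.014), and JUNB without a filter (0.01) and with DESeq2 (0.021). Fits that left out 1 library had no block. In each, 1 group held only 1 lineage, so the values took in the difference between lineages. These fits took the lone sample to vary like the others. They called 0 to 1 genes up and 0 down. Member values ran from -0.328 to 1.808 for FOSL2, -2.013 to 1.759 for JUN, -0.517 to 0.448 for JUNB, -1.548 to 3.174 for FOSL1, -0.162 to 0.947 for EGR1, -0.5 to 0.948 for FOS, -0.159 to 0.732 for JUND and -0.443 to 1.503 for MYC, and stayed above 0 for IER3 in all 4 fits and for FOSB in the 3 that held it. No member was called in any of these fits. The cause of these shifts was not tested. FOS, FOSB and the Hep3B pair's FOSL1 and FOSL2 were limited by depth.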

Other observations

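The gap between the lineages was narrower among the HCSC lines than among the HCC lines for most genes, and for most members among them. Of the 9 members listed in both pairs, 7 had a smaller absolute log2 difference between Hep3B-C and Huh7-C than between Hep3B and Huh7, FOSL1 and JUNB being the exceptions, and the median gap of the 9 was 1.67 in HCC and 0.88 in HCSC. Over 11431 genes listed in both pairs 59.7% had a smaller gap, with medians of 1.12 and 0.77. With differences centred on the median gene the count was 6 of 9 members, with IER3, JUNB and JUND the exceptions, against 61.3% of genes. The comparison was chosen after the values had been seen, was not tested, and rests on 1 library per culture.

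Summed over the 10 genes, the Hep3B lineage held 957.7 CPM (Hep3B) and 863.2 (Hep3B-C), and the Huh7 lineage 422.3 (Huh7) and 686.0 (Huh7-C).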
